A study of Mus musculus with 9 samples.

Results

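Interferon-stimulated genes were followed across the 9 arrays of this series as a fixed list of 50 gene symbols. A gene was taken as measured where the platform annotation gives a probe set that symbol and no other, which held for 48 of the 50 and for 80 probe sets, among 18193 genes measured in all. Isg15 lay on a probe set with several symbols and Ifi44 was matched by none, and neither was analysed here. The list comprised 4 interferon regulatory and STAT factors, 10 RNA and DNA sensors with their effectors, 14 other antiviral effectors, 3 members of the ISG15 and ubiquitin-like system, 3 PARP and Dtx3l genes, 5 interferon-inducible GTPases, 6 genes of the immunoproteasome and of peptide loading, and 3 CXCR3 chemokines. The tissue was small-intestinal mesenchyme of C57Bl/6J mouse embryos at E18.5, the connective tissue and muscle precursors beneath the gut lining, separated from the epithelium and grown on collagen in medium with serum. After 48 h in culture the cells were exposed to the ligand Sonic hedgehog (Shh), the ligand Indian hedgehog (Ihh) or Vehicle for 24 h, with 3 arrays for each, and no genetic change or other agent is named for any group. The title of the series names hedgehog as an anti-inflammatory signal from the epithelium. Each replicate was a pool of wells, since the 6 wells of a treatment were combined at random into 3 samples, and p-values measure how far such pools differ. Ligand dose is not given in the sources used here.

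Interferons are secreted proteins that cells release on sensing foreign nucleic acid. Type I interferons bind the receptor chains Ifnar1 and Ifnar2, whose kinases Jak1 and Tyk2 activate Stat2. With Irf9 it is part of a complex that binds the interferon-stimulated response element (ISRE) in the promoters of antiviral genes. Type II interferon acts through the gamma-activated site (GAS), and genes such as the GTPases and Irf1 respond strongly to it. Shh and Ihh are ligands that gut epithelium makes and the mesenchyme receives through Patched receptors.

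The ISRE was visible in the start regions of several members. RefSeq promoter windows of GRCm38.p6, from 250 bases before to 50 after a start site, were on hand for 36 of the 48. These 36 had 45 windows, since a gene can have several start sites. The ISRE core was searched as GAAANNGAAA, which reads TTTCNNTTTC on the other strand, and the GAS as TTCNNNGAA, which is its own reverse complement. The stretches below are examples from the 14 members with the ISRE core, printed along the gene's strand with the core matches in capitals. Of the genes shown, Ifit1 and Rsad2 passed the test for both ligands against Vehicle given below, and the others did not. Cxcl10, which passed it too, held a core at -213 that is not shown. Isg20, which also passed it, held a GAS match and no core. Where matches share bases, the capitals run over both.
Ifit1: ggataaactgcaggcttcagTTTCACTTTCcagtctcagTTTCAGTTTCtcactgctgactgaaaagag
Ifit3: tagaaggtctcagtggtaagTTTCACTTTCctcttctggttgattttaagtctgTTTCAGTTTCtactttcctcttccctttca
Rsad2: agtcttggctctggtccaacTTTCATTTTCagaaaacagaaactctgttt
Stat2: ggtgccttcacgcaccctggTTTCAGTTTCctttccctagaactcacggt
Oas1a: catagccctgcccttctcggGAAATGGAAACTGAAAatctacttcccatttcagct
Igtp: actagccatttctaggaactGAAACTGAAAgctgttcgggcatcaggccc
Irgm1: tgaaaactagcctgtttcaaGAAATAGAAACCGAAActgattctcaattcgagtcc
The Ifit1 stretch is chr19:34640765-34640833 on the plus strand. The Ifit3 stretch is chr19:34583353-34583436 on the plus strand. The Rsad2 stretch is chr12:26456543-26456592 on the minus strand. The Stat2 stretch is chr10:128270256-128270305 on the plus strand. The Oas1a stretch is chr5:120907510-120907565 on the minus strand. The Igtp stretch is chr11:58199502-58199551 on the plus strand. The Irgm1 stretch is chr11:48871415-48871470 on the minus strand. Ifit1 and Ifit3 each held 2 separate matches, and Oas1a and Irgm1 each held 2 that overlap. A match is a description of these letters, and binding was not measured.

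Values are log2 expression per probe set, so that a difference of 1 is 2-fold, and a gene with several probe sets was taken from the one with the highest mean over all arrays. Array medians lay between 5.87 and 5.92, and low values are compressed towards background, so differences of the 8 members that reached below these medians may be understated. Ptch1, a receptor gene that hedgehog signalling itself induces, stood at 10.41, 10.88 and 10.35 with Shh, 10.57, 10.49 and 10.98 with Ihh, and 9.25, 9.11 and 9.06 with Vehicle. All 6 ligand-treated arrays were above all 3 Vehicle arrays (1.48 ± 0.14 log2, SE, adjusted p = 0.000622). On the interferon-stimulated genes the library labelled Vehicle 3 stood apart from Vehicle 1 and Vehicle 2, so results are given with and without it. Because it was picked on these same values, larger differences and a smaller Vehicle spread without it follow from the choice. Calls and adjusted p without Vehicle 3 are thus descriptive and are no separate evidence of a difference. The Ptch1 value of Vehicle 3, and its Il6 value given further on, lay with or next to those of the other Vehicle arrays.

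Interferon-stimulated genes were lower with hedgehog ligand than on 2 of the 3 Vehicle arrays, and the Vehicle 3 array resembled the treated ones. For both ligands together against Vehicle, 7 of 48 members fell and 0 rose at an adjusted p under 0.05, namely Ifit1, Usp18, Rsad2, Cmpk2, Oasl1, Isg20 and Cxcl10. Over all genes 195 (1.07%) were called lower and 79 (0.434%) higher. The median difference of the members was -0.74 log2, against 0.00 over all genes, and 47 of the 48 lay below 0. At an unadjusted p under 0.05, 40 members were lower, against 8.41% of all genes, and 0 were higher. Without Vehicle 3, 38 members were called lower, against 1.92% of all genes, and the median difference was -1.01. Without Vehicle 1, or without Vehicle 2, 0 were called. In bulk RNA, fewer cells that make a transcript and less of it per cell cannot be told apart.

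**Figure D1:**
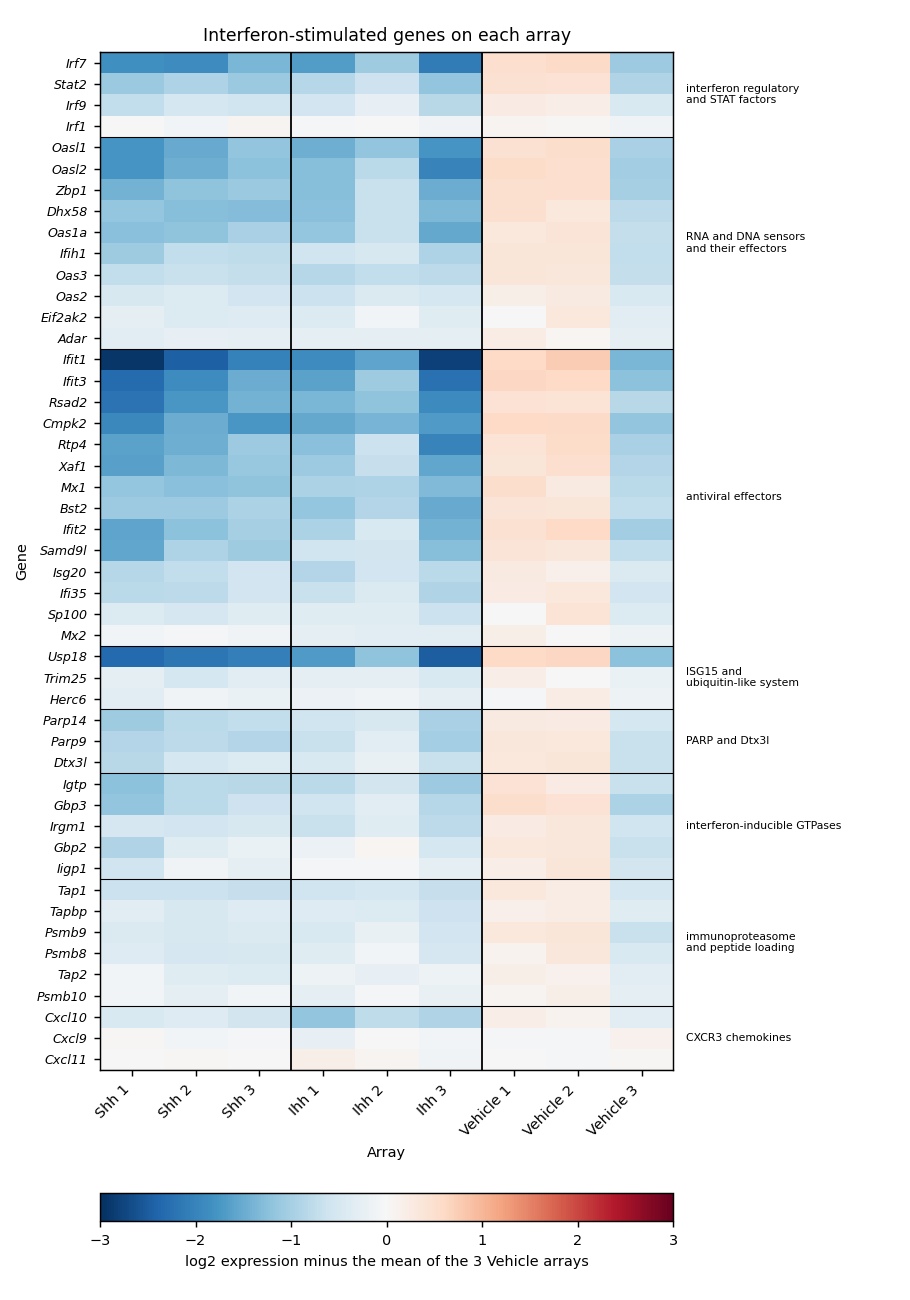
Each of the 48 members (rows, grouped by role) on each of the 9 arrays (columns), as log2 expression minus that gene's mean over the 3 Vehicle arrays, blue for lower and red for higher. The 6 Shh and Ihh columns and the Vehicle 3 column are blue for most genes, Vehicle 1 and Vehicle 2 are pale red, and Irf1, Cxcl9 and Cxcl11 stay near white on every array.

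Of the 4 transcription factors 0 passed the test, with a median difference of -0.78 log2, and 3 were called lower without Vehicle 3. Irf7, which amplifies interferon production, stood at 6.52, 6.48 and 6.99 with Shh, 6.68, 7.29 and 6.26 with Ihh, and 8.87, 8.93 and 7.28 with Vehicle. Only Vehicle 1 and Vehicle 2 were clear of the ligand-treated arrays, and Vehicle 3 lay just under Ihh 2. The difference was -1.66 ± 0.35 log2 (SE, adjusted p = 0.0536), and -2.20 (adjusted p = 0.00136) without Vehicle 3. Stat2, a subunit of the complex that binds the ISRE, stood at 6.09, 6.26 and 6.08 with Shh, 6.33, 6.57 and 6.01 with Ihh, and 7.66, 7.64 and 6.29 with Vehicle. Vehicle 1 and Vehicle 2 were the high arrays here too, and Vehicle 3 lay inside the range of the treated ones (-0.97 ± 0.27 log2, SE, adjusted p = 0.124). Its partner Irf9 stood at 7.92, 8.15 and 8.07 with Shh, 8.09, 8.42 and 7.83 with Ihh, and 8.92, 8.87 and 8.22 with Vehicle. The groups overlapped through Vehicle 3 alone, and the difference was -0.59 ± 0.17 log2 (SE, adjusted p = 0.131). Irf1, a factor that type II interferon induces directly, was the exception at 9.06, 8.99 and 9.16 with Shh, 9.03, 9.09 and 8.97 with Ihh, and 9.15, 9.10 and 8.96 with Vehicle. All 9 arrays lay close together, and the difference was -0.02 ± 0.06 log2 (SE, adjusted p = 0.939).

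Of the 10 sensors and their effectors 1 fell, Oasl1, and the median difference was -0.95 log2. Without Vehicle 3, 9 were called lower. Oasl1, a protein related to the oligoadenylate synthetases that lacks their enzyme activity, stood at 6.35, 6.61 and 6.93 with Shh, 6.65, 6.93 and 6.34 with Ihh, and 8.57, 8.64 and 7.15 with Vehicle. All ligand-treated arrays were below all Vehicle arrays, the nearest Vehicle array being Vehicle 3, and the expression was 2.8-fold lower (-1.49 ± 0.30 log2, SE, adjusted p = 0.0447). The call ended without any array other than Vehicle 3, at an adjusted p of up to 0.199, and the difference was -1.97 (adjusted p = 0.000372) without Vehicle 3. Dhx58, the RNA helicase LGP2, stood at 5.64, 5.51 and 5.50 with Shh, 5.55, 6.14 and 5.46 with Ihh, and 7.27, 7.11 and 6.01 with Vehicle. Oas1a, an enzyme whose oligoadenylate product activates RNA decay, stood at 8.31, 8.34 and 8.59 with Shh, 8.39, 8.88 and 8.01 with Ihh, and 9.87, 9.94 and 8.85 with Vehicle. In both genes Vehicle 3 lay just inside the treated range, below Ihh 2, and neither passed the test (-1.16 ± 0.25 log2, SE, adjusted p = 0.0558 for Dhx58 and -1.13 ± 0.25 log2 (SE, adjusted p = 0.0584) for Oas1a). Oasl2, with -1.42, and Zbp1, a sensor of Z-form nucleic acid, with -1.20, did not pass it either. Ifih1, the RNA sensor MDA5, differed by -0.76, and the synthetases Oas2 and Oas3 by -0.51 and -0.75. The smallest differences in this group were -0.31 for Eif2ak2, the RNA-activated kinase PKR, and -0.28 for Adar, which edits double-stranded RNA. The other probe sets differed more, by -0.61 and -0.45 for Eif2ak2 and by -0.30 and -0.51 for Adar. Eif2ak2 was the 1 sensor not called without Vehicle 3, at an adjusted p of 0.0656.

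Antiviral effectors held 4 of the 7 calls, and their median difference was -1.12 log2. Without Vehicle 3, 13 of 14 were called lower. Ifit1, which binds foreign RNA ends, stood at 5.16, 5.62 and 6.05 with Shh, 6.20, 6.50 and 5.27 with Ihh, and 8.68, 8.85 and 6.70 with Vehicle. Every ligand-treated array was below every Vehicle array, and Vehicle 3 lay far nearer to the treated arrays than to Vehicle 1 and Vehicle 2. Its level was 4.85-fold lower with the ligands (-2.28 ± 0.46 log2, SE, adjusted p = 0.0435), and the difference was -2.97 (adjusted p = 0.00115) without Vehicle 3. Rsad2, the antiviral radical-SAM enzyme viperin, stood at 7.73, 8.20 and 8.53 with Shh, 8.56, 8.72 and 8.02 with Ihh, and 10.36, 10.34 and 9.11 with Vehicle. The groups did not overlap, and Vehicle 3 lay between the treated arrays and the other Vehicle arrays. It was 3.13-fold lower (-1.65 ± 0.29 log2, SE, adjusted p = 0.0259), and the difference was -2.06 (adjusted p = 0.00127) without Vehicle 3.

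Cmpk2, a mitochondrial nucleotide kinase whose gene neighbours Rsad2, stood at 6.41, 6.86 and 6.60 with Shh, 6.80, 6.95 and 6.64 with Ihh, and 8.95, 8.91 and 7.17 with Vehicle. The treated arrays were tightly grouped below all Vehicle arrays, with Vehicle 3 nearest to them. Cmpk2 was 3.1-fold lower (-1.63 ± 0.34 log2, SE, adjusted p = 0.0482), and the difference was -2.21 (adjusted p = 2.82e-05) without Vehicle 3. Its other probe set lay below the array medians and differed by -0.30 log2 (adjusted p = 0.25 by limma). Isg20, an exonuclease that degrades RNA, stood at 5.95, 6.07 and 6.24 with Shh, 5.93, 6.24 and 6.01 with Ihh, and 7.09, 6.96 and 6.39 with Vehicle. Groups were again separate, with Vehicle 3 the lowest Vehicle array, and the difference was -0.74 ± 0.14 log2 (SE, adjusted p = 0.0359), or -0.95 (adjusted p = 0.00116) without Vehicle 3. The calls of Ifit1, Cmpk2 and Isg20 each ended without any array other than Vehicle 3, at adjusted p of up to 0.193, 0.207 and 0.173. That of Rsad2 ended without Shh 1, Shh 2, Ihh 3, Vehicle 1 or Vehicle 2, at up to 0.135.

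Ifit3, a partner of Ifit1, had one of the widest Vehicle ranges and stood at 7.04, 7.47 and 7.88 with Shh, 7.74, 8.29 and 7.13 with Ihh, and 9.98, 9.96 and 8.13 with Vehicle. Vehicle 3 lay below Ihh 2, so the groups overlapped, and a difference of -1.76 ± 0.41 log2 (SE, adjusted p = 0.0717) did not pass the test. Of the others, Rtp4, a chaperone of surface receptors, differed by -1.34, Xaf1, a promoter of cell death, by -1.24, Ifit2 by -1.11 and Samd9l, which restrains translation in infected cells, by -1.0. Bst2, the surface protein tetherin that holds budding virus, and Mx1, a dynamin-like GTPase, were lower on all 6 treated arrays than on any Vehicle array, by -1.11 ± 0.23 log2 (SE, adjusted p = 0.0513) and -1.14 ± 0.24 log2 (SE, adjusted p = 0.0522). Both narrowly missed the threshold. The RefSeq table lists Mx1, Mx2 and Cxcl11 as transcribed pseudogenes. Ifi35 differed by -0.70, Sp100, a nuclear body protein, by -0.44 and Mx2 by -0.20. Mx2 was the 1 effector not called without Vehicle 3, at an adjusted p of 0.0612.

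Usp18, the protease that removes ISG15 from proteins and dampens the type I receptor, fell with the ligands. It stood at 6.12, 6.30 and 6.41 with Shh, 6.77, 7.26 and 5.98 with Ihh, and 9.06, 9.09 and 7.23 with Vehicle. Ihh 2 and Vehicle 3 had nearly the same value and were the only arrays through which the groups overlapped. The level was 3.96-fold lower (-1.98 ± 0.40 log2, SE, adjusted p = 0.0447). The difference was -2.60 (adjusted p = 0.000985) without Vehicle 3, and the call ended without any one of the other 8 arrays, at up to 0.199. Trim25, a ubiquitin ligase for the sensor RIG-I, stood at 9.45, 9.19 and 9.36 with Shh, 9.44, 9.41 and 9.26 with Ihh, and 9.92, 9.71 and 9.50 with Vehicle. Its treated arrays all lay below its Vehicle arrays by a small margin (-0.36 ± 0.09 log2, SE, adjusted p = 0.106), which did not pass the test. Herc6, the mouse ligase that attaches ISG15, stood at 7.41, 7.63 and 7.54 with Shh, 7.57, 7.64 and 7.44 with Ihh, and 7.67, 7.97 and 7.58 with Vehicle, with a difference of -0.20 ± 0.09 log2 (SE, adjusted p = 0.359). Its 3 other probe sets differed by -1.14, -0.71 and -0.87 log2, so the probe set used showed the smallest difference of the 4. The probe set used also showed the smallest difference for Eif2ak2, Adar and Dtx3l, while other members had further probe sets with smaller differences than the one used. Of the members' 32 other probe sets, 28 went the same way as the one used and 4 the opposite way.

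The ADP-ribosylation genes Parp9 and Parp14 and the ubiquitin ligase Dtx3l, a partner of Parp9, had 0 calls and a median difference of -0.76 log2, and all 3 were called lower without Vehicle 3. Parp14 stood at 7.17, 7.42 and 7.49 with Shh, 7.63, 7.75 and 7.26 with Ihh, and 8.51, 8.48 and 7.71 with Vehicle. Parp9 stood at 8.11, 8.19 and 8.09 with Shh, 8.32, 8.63 and 7.97 with Ihh, and 9.33, 9.29 and 8.32 with Vehicle. In Dtx3l the values were 7.83, 8.14 and 8.26 with Shh, 8.22, 8.44 and 8.0 with Ihh, and 8.98, 9.03 and 8.0 with Vehicle. In all 3 genes Vehicle 1 and Vehicle 2 were within a narrow band above every treated array, and Vehicle 3 lay among the treated arrays. The differences were -0.78 ± 0.18 log2 (SE, adjusted p = 0.0677) for Parp14, -0.76 ± 0.21 log2 (SE, adjusted p = 0.131) for Parp9 and -0.52 ± 0.21 log2 (SE, adjusted p = 0.311) for Dtx3l.

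The 5 interferon-inducible GTPases, which act on the membranes of vacuoles that hold pathogens, had 0 calls and a median difference of -0.56 log2. Igtp stood at 7.21, 7.65 and 7.61 with Shh, 7.65, 7.91 and 7.37 with Ihh, and 8.88, 8.69 and 7.78 with Vehicle. Gbp3 stood at 7.08, 7.46 and 7.65 with Shh, 7.68, 7.94 and 7.40 with Ihh, and 8.79, 8.69 and 7.32 with Vehicle. Irgm1, a regulator of the other immunity-related GTPases, stood at 8.66, 8.59 and 8.67 with Shh, 8.50, 8.79 and 8.37 with Ihh, and 9.41, 9.50 and 8.56 with Vehicle. In each of them Vehicle 3 lay inside the treated range while Vehicle 1 and Vehicle 2 lay above it. The differences were -0.88 ± 0.22 log2 (SE, adjusted p = 0.0958) for Igtp, -0.74 ± 0.29 log2 (SE, adjusted p = 0.294) for Gbp3 and -0.56 ± 0.18 log2 (SE, adjusted p = 0.193) for Irgm1, and these 3 were called lower without Vehicle 3. Gbp2 and Iigp1 differed by -0.35 and -0.22 and were not called without Vehicle 3, at adjusted p of 0.106 and 0.0819. In these 2 genes Shh 1 was the lowest array, and the Vehicle 3 values of 7.50 and 8.67 were next to it.

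Genes of the immunoproteasome and of peptide loading, which prepare peptides for MHC class I, had 0 calls of 6 and a median difference of -0.41 log2. Tap1, a subunit of the peptide transporter, stood at 5.98, 5.98 and 5.93 with Shh, 6.02, 6.08 and 5.92 with Ihh, and 6.93, 6.84 and 6.08 with Vehicle. Tapbp, which tethers that transporter to class I, stood at 9.44, 9.28 and 9.39 with Shh, 9.37, 9.35 and 9.14 with Ihh, and 9.91, 9.99 and 9.40 with Vehicle. Psmb8, a catalytic immunoproteasome subunit, stood at 8.33, 8.21 and 8.25 with Shh, 8.36, 8.63 and 8.23 with Ihh, and 8.84, 9.06 and 8.27 with Vehicle. Vehicle 3 lay within the treated range in all 3, in Tap1 level with Ihh 2 at its upper edge. The differences were -0.63 ± 0.16 log2 (SE, adjusted p = 0.0861) for Tap1, -0.44 ± 0.12 log2 (SE, adjusted p = 0.117) for Tapbp and -0.39 ± 0.15 log2 (SE, adjusted p = 0.286) for Psmb8. The other probe sets of Tap1, all below the array medians, differed by 0.02, -0.04 and -0.03 log2. Those of Tapbp and Psmb8 differed by -0.14 and -0.15. Psmb9 differed by -0.43, Tap2 by -0.24 and Psmb10 by -0.16. Without Vehicle 3, 4 of the 6 were called lower, and Tap2 and Psmb10 were not, at adjusted p of 0.06 and 0.0928. Vehicle 3 was the lowest of all 9 arrays for Psmb9 and Psmb10.

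Of the 3 chemokines of the receptor CXCR3, which attract T and NK cells, 1 fell, Cxcl10. Cxcl10 stood at 7.90, 7.98 and 7.82 with Shh, 7.18, 7.60 and 7.45 with Ihh, and 8.57, 8.46 and 8.05 with Vehicle. The Ihh arrays were the lowest, the Shh arrays came next and the Vehicle arrays were highest without overlap, with Vehicle 3 the lowest of them. The difference was -0.71 ± 0.12 log2 (SE, adjusted p = 0.0225), and -0.86 (adjusted p = 0.00237) without Vehicle 3. Leaving out any one of Vehicle 1, Vehicle 2, Shh 1 and Shh 3 ended the call, with an adjusted p of 0.12 at most. Cxcl9 stood at 4.91, 4.79 and 4.81 with Shh, 4.62, 4.85 and 4.79 with Ihh, and 4.81, 4.81 and 4.99 with Vehicle, and Cxcl11 at 4.91, 4.97 and 4.92 with Shh, 5.12, 5.01 and 4.83 with Ihh, and 4.95, 4.89 and 4.96 with Vehicle. Both lay below the array medians on every array with overlapping groups, and their differences were -0.07 ± 0.07 log2 (SE, adjusted p = 0.727) and 0.03 ± 0.06 log2 (SE, adjusted p = 0.92).

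**Figure D2:**
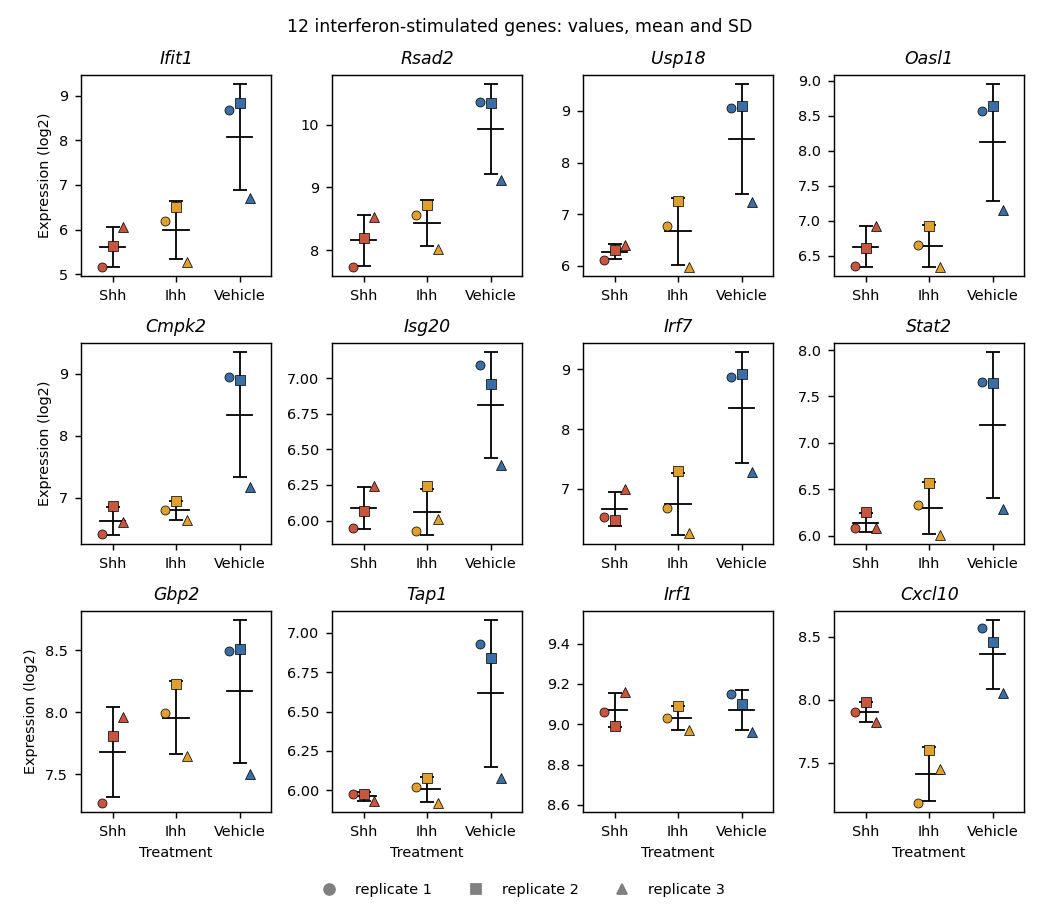
Log2 expression of 12 members on each array by treatment (Shh, Ihh, Vehicle), with the marker shape giving the replicate, horizontal lines the mean and bars the SD of 3 arrays. The y axes differ between panels and do not start at 0; Vehicle 3 (triangle) lies near the ligand-treated arrays for Ifit1, Usp18, Irf7, Stat2, Gbp2 and Tap1, and Irf1 varies little.

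The spread among the 3 Vehicle arrays was wide and ran the same way in nearly every member. The median SD of the members was 0.13 log2 over the Shh arrays and 0.23 over the Ihh arrays, against 0.09 and 0.07 over all genes. Over the Vehicle arrays it was 0.58, against 0.08 over all genes. An SD over Vehicle above 0.5 was found in 27 members (56.2%), against 160 of all genes (0.879%), and 29 members were in the top 1% of genes by this SD. Vehicle 3 was the lowest Vehicle array in 46 of 48 members (95.8%), against 32.5% of all genes. The exceptions were Cxcl9 and Cxcl11. Vehicle 1 and Vehicle 2 were close to each other, with a median gap of 0.08, the same as over all genes, and a largest gap of 0.43 among the members.

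Gene by gene, the SD over Vehicle was highest in Ifit1 (1.20 log2), Usp18 (1.07) and Ifit3 (1.06) and lowest in Cxcl11 (0.04), Irf1 (0.09) and Cxcl9 (0.10). The median range over Vehicle was 1.02, against 0.16 over all genes. In 40 members that range exceeded the difference between both ligands and Vehicle, and the same held for 81.6% of all genes. Vehicle 3 was at or below the highest treated array in 38 members (79.2%), a share no higher than that of all genes (84.6%). It lay above all treated arrays in the other 10, namely Ifit1, Rsad2, Cmpk2, Isg20, Mx1, Bst2, Oasl1, Trim25, Cxcl10 and Cxcl9. Around each gene's Vehicle mean, the members averaged -0.97, -0.84 and -0.76 log2 on the Shh arrays, -0.76, -0.52 and -1.02 on the Ihh arrays, and 0.31, 0.32 and -0.64 on the Vehicle arrays. By that average Vehicle 3 lay between Ihh 2 and the other treated arrays. The same averages over all genes ran from -0.03 to 0.01.

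**Figure D3:**
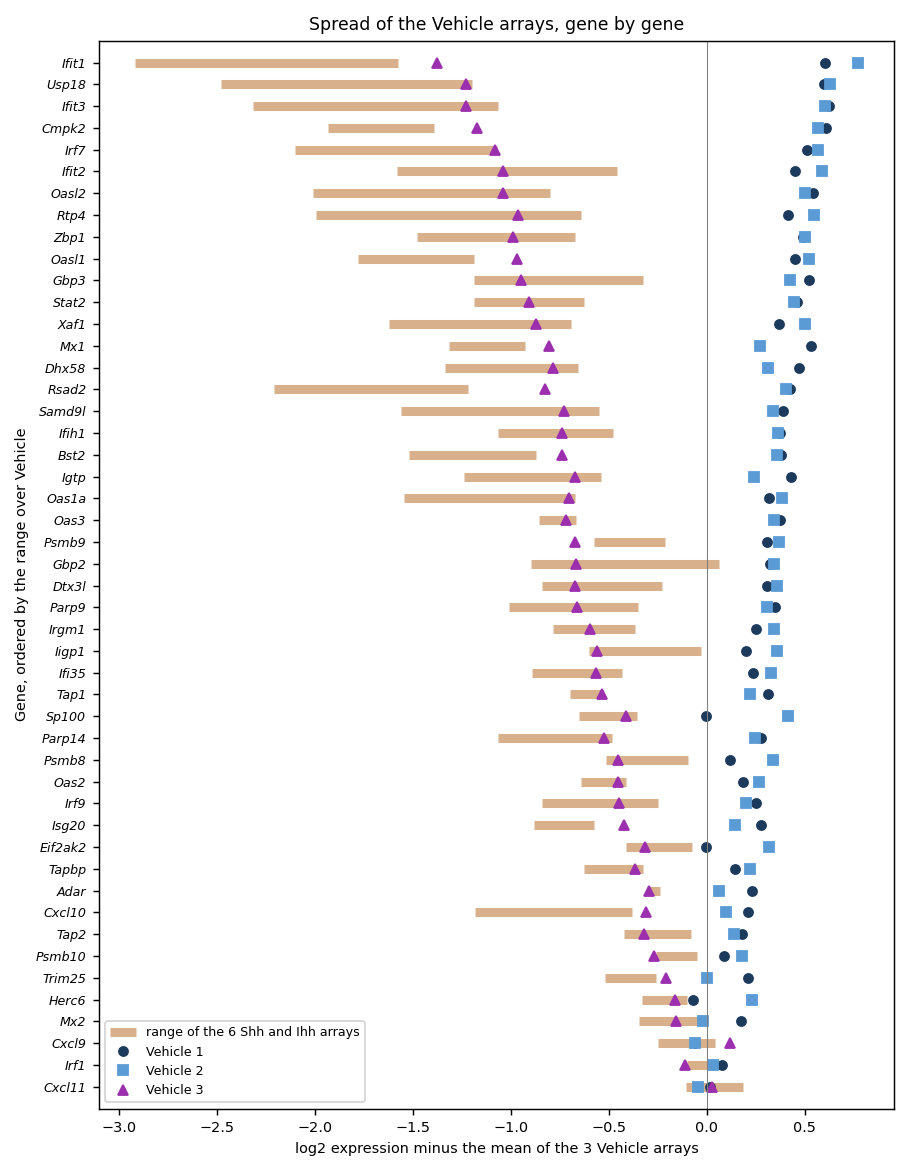
For each member, the 3 Vehicle arrays (points) and the range of the 6 Shh and Ihh arrays (bars) on the log2 scale relative to the mean of the Vehicle arrays, with genes ordered by their Vehicle range. Vehicle 3 is the leftmost Vehicle point in 46 of 48 genes and at or below the highest treated array in 38 (79.2%), against 84.6% of all genes.

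The number of calls followed which arrays entered the fit. For both ligands against Vehicle it was 7 with all arrays, 38 without Vehicle 3, and between 0 and 2 without any other single array. Treated and Vehicle arrays did not overlap, with the treated ones lower, in 9 members, against 3.8% of all genes. The count was also 9 without Vehicle 1 and 9 without Vehicle 2, against 5.28% and 6.04% of all genes. It was 45 without Vehicle 3, against 8.05% of all genes. The 3 members that still overlapped were Irf1, Cxcl9 and Cxcl11. Whether Vehicle 3 or the other Vehicle arrays represent the treatment cannot be told apart with 3 pools.

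**Figure D4:**
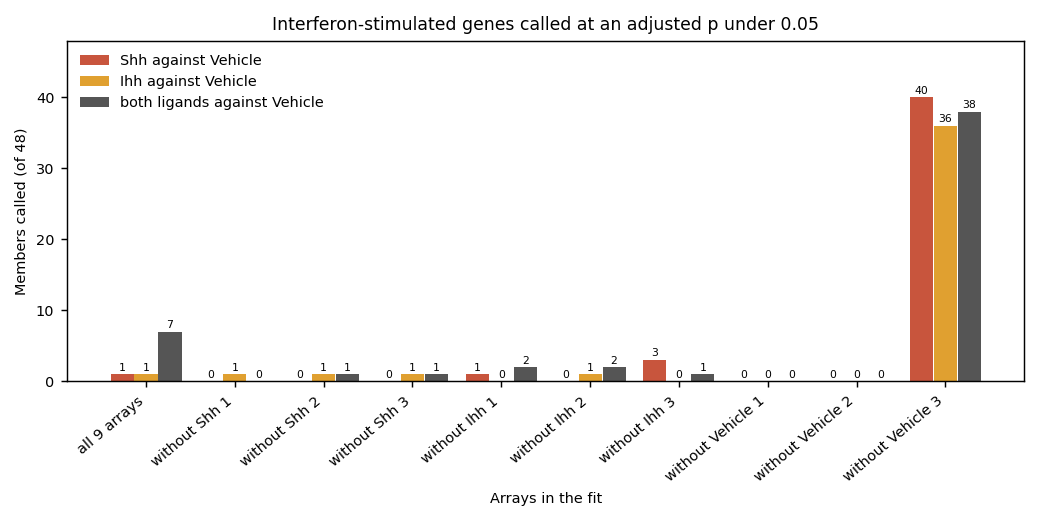
Number of the 48 members called at an adjusted p under 0.05 (limma) with all 9 arrays and without each array in turn, for Shh against Vehicle, Ihh against Vehicle and both ligands against Vehicle. The counts are 40, 36 and 38 without Vehicle 3, and 7 or fewer in every other fit.

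Each ligand was also set against Vehicle alone, and these comparisons share the Vehicle arrays. With Shh 1 member fell, Rsad2, with a difference of -1.78 ± 0.33 log2 (SE, adjusted p = 0.033), against 1.24% of all genes called lower. With Ihh 1 member fell, Cxcl10, with -0.95 ± 0.14 log2 (SE, adjusted p = 0.0141), against 0.456% of all genes. In a fit of only Ihh and Vehicle that took the replicate number as a block, added after seeing the data, 15 members were called lower, against 1.11% of all genes, and without the block that fit called 0. These 15 included Ifit1 (-2.09 ± 0.19 log2, SE, adjusted p = 0.00831), Usp18 (-1.79, adjusted p = 0.0102), Rsad2 (-1.51, adjusted p = 0.00764) and Cxcl10 (adjusted p = 0.0373). The block was chosen on these same data, so its calls and adjusted p are descriptive and no separate evidence of a difference. Members whose arrays lay wholly below Vehicle numbered 27 for Shh, against 11.4% of all genes, and 12 for Ihh, against 8.15%. Without Vehicle 3, 40 members were called lower with Shh, against 2.91% of all genes, and 36 with Ihh, against 1.09%. The median difference was -0.73 log2 for Shh and -0.67 for Ihh.

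Between the ligands, 0 members were called by limma in either direction, against 0.011% of all genes higher with Shh and 0% lower. At an unadjusted p under 0.05, 2 members were higher with Shh, Cxcl10 and Mx2, against 7.17% of all genes, and 0 were lower, against 5.97%. Cxcl10 differed by 0.49 ± 0.14 log2 (SE, adjusted p = 0.292) and Mx2 by 0.23 ± 0.08 log2 (SE, adjusted p = 0.31) for Shh minus Ihh. The arrays of these genes and of Oas3 did not overlap between the ligands, with Shh higher, which held for 9.37% of all genes. The spread within the treated groups was shared across members. Among the 6 treated arrays Ihh 2 was the highest in 35 members (72.9%), against 12.4% of all genes. Ihh 3 was the lowest in 21 and Shh 1 in 16, or 43.8% and 33.3%, against 14% and 14.7% of all genes.

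Other genes of the interferon pathway, outside the list, were measured for 42 of 51 symbols. They were 7 interferon genes, 9 receptors and kinases, 7 STAT and other IRF factors, 10 sensors and adaptors, 5 inhibitors and 4 MHC class I genes. For both ligands against Vehicle, 1 of the 42 fell and 0 rose. This was Ikbke, a kinase that activates Irf3 and Irf7, at 7.52, 7.55 and 7.56 with Shh, 7.47, 7.44 and 7.51 with Ihh, and 8.48, 8.31 and 8.0 with Vehicle. Treated arrays were tightly grouped below all Vehicle arrays, Vehicle 3 included (-0.75 ± 0.09 log2, SE, adjusted p = 0.00286). None of the 7 interferon genes passed the test. Ifnb1 ranged from 4.26 to 4.69 log2 over all 9 arrays and Ifng from 3.50 to 3.77, both below the array medians, with differences of -0.04 and 0.03. Of the 9 receptor and kinase genes 0 passed, with differences of -0.04 for Ifnar1, -0.21 for Ifnar2, 0.03 for Ifngr1, -0.11 for Ifngr2, -0.12 for Jak1 and -0.07 for Tyk2. Irf3, the factor activated by RNA sensors, differed by -0.16, and Socs1, an inhibitor of the receptor kinases, by -0.04.

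Without Vehicle 3, 8 of these 42 genes were called lower. Ddx58, the RNA sensor RIG-I and itself interferon-induced, stood at 7.94, 8.0 and 8.11 with Shh, 8.15, 8.18 and 7.92 with Ihh, and 9.26, 9.27 and 8.15 with Vehicle. Vehicle 3 was level with the higher treated arrays, and the difference was -0.84 ± 0.22 log2 (SE, adjusted p = 0.0997), or -1.21 (adjusted p = 8.55e-05) without Vehicle 3. Nlrc5, a regulator of MHC class I genes, stood at 4.94, 5.28 and 4.96 with Shh, 5.15, 5.30 and 4.89 with Ihh, and 6.65, 6.15 and 5.15 with Vehicle (-0.90 ± 0.26 log2, SE, adjusted p = 0.146), and differed by -1.31 (adjusted p = 0.002) without Vehicle 3. The class I genes H2-K1 and H2-D1 differed by -0.31 (adjusted p = 0.234) and -0.26 (adjusted p = 0.37), and by -0.47 (adjusted p = 0.0129) and -0.44 (adjusted p = 0.0204) without Vehicle 3. In these 3 genes Vehicle 3 lay within the treated range and Vehicle 1 and Vehicle 2 above it. The others were Socs3, an inhibitor of STAT3 signalling (-0.48 ± 0.11 log2, SE, adjusted p = 0.0589), Myd88, an adaptor of Toll-like receptors (-0.24 ± 0.06 log2, SE, adjusted p = 0.0897), Tlr3, a receptor for double-stranded RNA (-0.47, adjusted p = 0.155), and Ikbke. Of the 8, Ikbke was the 1 that passed the test with all arrays. Ptpn6, a phosphatase, differed by -0.22 ± 0.06 log2 (SE, adjusted p = 0.12) and was not called without Vehicle 3 either, at an adjusted p of 0.0812.

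Markers of other cells were set beside these values. Of 12 macrophage markers 5 fell with the ligands, among them Marco (-3.20 ± 0.15 log2, SE, adjusted p = 5.93e-06) and Cd14 (-1.66 ± 0.10 log2, SE, adjusted p = 3.09e-05), and Cx3cr1 rose (0.87 ± 0.17 log2, SE, adjusted p = 0.0384). The markers not called were Csf1r (0.00), Cd68 (0.22), Mrc1 (0.10), C1qa (0.17), C1qb (0.15) and Ptprc (-0.15). The median difference of the 12 was -0.07 log2, and 6 of the 12 lay below 0. Around the Vehicle mean, the 12 averaged between -0.57 and -0.39 log2 on the treated arrays, against -0.09 to 0.11 on the Vehicle arrays. The summed linear level of this list was 22478 to 24137 on the treated arrays, against 26010 to 28702 on the Vehicle arrays, with Vehicle 3 at 26010. Its part in the lower interferon-stimulated genes was not tested. Vehicle 3 was the lowest Vehicle array in 9 of the 12 markers (75%), against 32.5% of all genes. Among the called ones, Adgre1 stood at 9.88, 10.03 and 9.64, Itgam at 7.78, 7.92 and 7.44 and Marco at 11.15, 11.16 and 11.33 on Vehicle 1, 2 and 3, so that Vehicle 3 was low for the first pair and not for Marco. Of 6 plasmacytoid dendritic cell markers and 10 T and NK cell markers 0 passed the test, with summed levels of 279 to 315 and 683 to 1111 on treated arrays, against 276 to 288 and 674 to 853 with Vehicle. The 7 endothelium markers had 0 calls and sums of 3143 to 4441, against 3944 to 4720, with Vehicle 3 the lowest Vehicle array.

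Of the 10 mesenchyme markers 0 passed the test, and 8 had a difference below 0. At an unadjusted p under 0.05, 4 were lower and 1 was higher. Col1a1, a collagen gene, differed by -0.57 ± 0.17 log2 (SE, adjusted p = 0.159), with all 6 treated arrays below all Vehicle arrays. The same held for Pdgfrb, a growth factor receptor gene (-0.21), while all 6 lay above Vehicle for Foxf1, a transcription factor of gut mesenchyme (0.22). Vim, an intermediate filament gene, lay between 12.97 and 13.10 log2 on the treated arrays and at 13.03, 13.08 and 13.06 on the Vehicle arrays. Epithelial transcripts were also present, to differing degrees, although the tissue had been separated from the epithelium. The 7 epithelium markers averaged 0.17, -0.88 and 1.05 log2 on the Shh arrays, 0.75, 0.62 and -0.20 on the Ihh arrays, and 0.92, 0.01 and -0.93 on the Vehicle arrays, around the Vehicle mean. Their summed level was 754 to 3421 on treated arrays, against 699 to 3300 with Vehicle, where Vehicle 3 had 699. Among the Vehicle arrays, Vehicle 3 was thus lowest for epithelium and, on average, for the members. On the same scale the members averaged -0.97, -0.84 and -0.76 log2 on the Shh arrays and -0.76, -0.52 and -1.02 on the Ihh arrays. Their averages on the Vehicle arrays were 0.31, 0.32 and -0.64. The part of epithelium in the spread of the members was not tested. Sex-linked Xist stood at 11.31, 11.24 and 6.43 with Shh, 10.04, 10.28 and 10.66 with Ihh, and 10.83, 6.34 and 6.48 with Vehicle. Eif2s3y, on the Y chromosome, stood at 3.24, 3.17 and 8.44 with Shh, 8.51, 7.54 and 7.74 with Ihh, and 6.24, 8.66 and 8.98 with Vehicle. The pools thus differed in sex-linked transcripts within and between treatments, Vehicle 2 and Vehicle 3 were alike for them, and their part in the results was not tested. The difference between 3' and 5' Gapdh probe sets, a sign of RNA quality, was -0.19 to -0.04 on the treated arrays, against -0.08 to 0.03 over the Vehicle arrays, with -0.05 on Vehicle 3. Il6, an inflammatory cytokine, stood at 5.43, 5.37 and 5.0 with Shh, 6.21, 6.21 and 5.47 with Ihh, and 7.69, 7.27 and 7.08 with Vehicle, with Vehicle 3 above every treated array (-1.74 ± 0.19 log2, SE, adjusted p = 0.00172).

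Promoter letters were compared with these differences. The ISRE core was found in 14 of the 36 members with a window (38.9%), against 1079 of 27025 genes in the whole promoter table (3.99%). A GAS match was found in 10 (27.8%), against 9.55%, and 4 members held both, with 1 pair of matches sharing bases, in Bst2. The core occurred in all 4 GTPases with a window, in 4 of 7 sensors and in 4 of 11 antiviral effectors. It was found in 0 of 5 genes of the immunoproteasome and peptide loading. Members with the core had a median difference of -0.82 log2 for both ligands and a median SD over Vehicle of 0.63. The 22 with a window and no core had -0.55 and 0.44. The ranges overlapped, from -2.28 to -0.31 with the core and from -1.66 to -0.02 without it. Irf1, which showed no difference past the test, held a GAS match at -90 and no ISRE core. Among the sequences shown at the start, the 2 cores of Ifit1 begin at -104 and -85 from the start site and those of Ifit3 at -156 and -122, and the single core of Rsad2 at -120. Each position is relative to the start site of its window. The Ifit3 stretch lies past the gene's first RefSeq base, chr19:34583119, so its window belongs to a later start site.

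**Figure D5:**
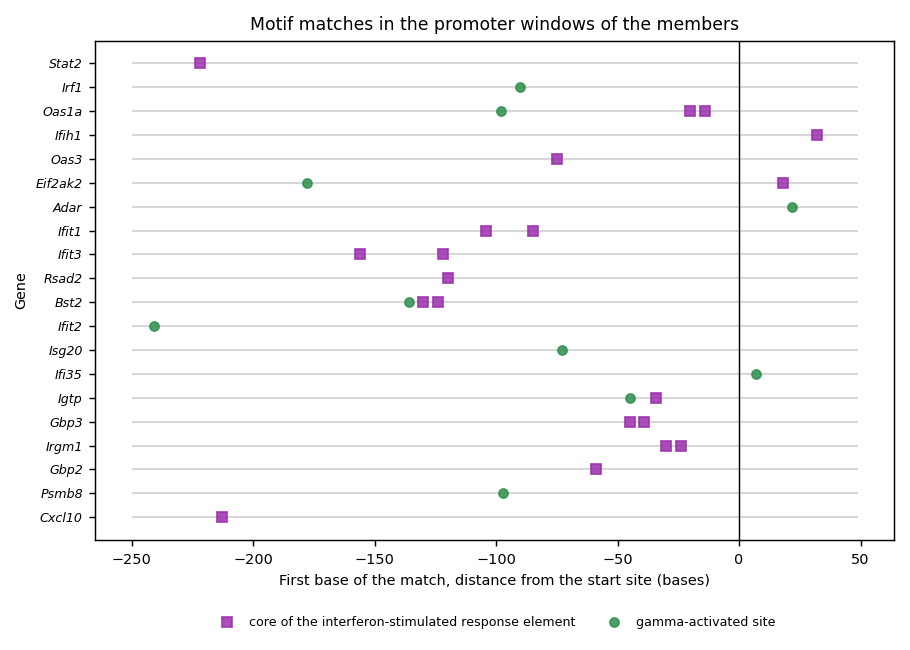
Position of each match to the ISRE core (squares) and to the gamma-activated site GAS (circles) in the promoter windows of the 20 members with a match, as the distance in bases of the first base of the match from the RefSeq start site of its window. Grey lines mark the searched window, from 250 bases before to 50 after the start site; most matches lie before the start site.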

How the data were processed

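RNA of 9 pooled cultures, 3 each for Shh, Ihh and Vehicle, was measured on Affymetrix arrays from 6 ug of total RNA. The deposited values were log2 expression for 45101 probe sets, made by the authors with GCOS and RMA per the submitters' processing notes, without version numbers. Because RMA equalises the distributions of the arrays, a change common to all genes cannot appear. That the scale is log2 was read from the range, 2.78 to 14.20. No batch or scan date is given in the sources used here. Arrays have no read depth, and their number limited the precision.

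Probe sets with 1 gene symbol (34945) were kept, 932 with several and 9160 with none were left out, and each gene was taken from its probe set with the highest mean, which gave 18193 genes. In R 4.3.3, limma 3.58.1 (lmFit, then eBayes) estimated the 3 group means from the 9 arrays together. Single-gene p are limma's, two-sided, with Benjamini-Hochberg adjustment across the 18193 genes of each comparison and a call at an adjusted p under 0.05. No test was made of the list as a whole. Same-numbered Ihh and Vehicle arrays deviated together from their group means (correlations across genes of 0.23 to 0.54, against -0.48 to 0.22 for other pairs of these groups), so that comparison was also fitted with the number as a block. The wells were pooled at random per the labels' protocols, so the pairing is read from the data alone. Deviations within a group of 3 arrays sum to 0, so these correlations depend on one another and cannot establish a pairing. The steps were tested on simulated data.

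The members, role groups, pathway genes and markers were chosen with earlier results of these data known. All 9 values were given for the 27 members that were called, had up to the 3 smallest p of a role, or had the 3 largest or 3 smallest SD over Vehicle. Other pathway genes were named for their place in the pathway, for a call, for the 4 smallest p after it or, chosen after their values were seen, for a call without Vehicle 3. Motifs were searched on both strands of RefSeq promoter windows of GRCm38.p6. The alternatives were another normalization, centring, probe-set choice, filter on dim genes, variance model, array weights, replicate block, fewer groups in the fit, and leaving out each array.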

Additional observations from a re-analysis of the deposited data

How the results depend on the processing

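Against the 7 members called for both ligands, the replicate block gave 13, centring on array medians 12, leaving out dim genes 11, a trended and robust variance model 2 and array weights 36. Calls over all genes, in either direction, were 274 in the main fit. They were 379 with the block, 345 with centring, 337 without dim genes and 351 with the trended model. The mean of probe sets gave 6 and single probe sets 5. With single probe sets Ifit1, Usp18, Oasl1 and Cmpk2 were no longer called, at adjusted p of 0.0504 to 0.0562 by limma, while Herc6 and Rtp4 were. For Shh, against 1, the replicate block gave 8, quantile normalization again 3, centring 4, leaving out dim genes 5, leaving out less specific probe sets 3, single probe sets 2, array weights 31 and a fit of only Shh and Vehicle 0. For Ihh, against 1, array weights gave 22 and a fit of only Ihh and Vehicle 0. For the 42 other pathway genes, against 1, array weights gave 9, the replicate block 3, and centring, leaving out dim genes, the mean of probe sets, less specific probe sets left out, the trended model and single probe sets 2 each. Array weights moved the 274 calls over all genes to 1126, with weights of 2.161 for Ihh 2 and 3.039 for Vehicle 2. The other weights ran from 0.622 for Vehicle 3 to 1.051 for Shh 3. Those of Shh 1 (0.637), Vehicle 1 (0.669) and Shh 2 (0.679) were close to that of Vehicle 3. Leaving out 1 array gave 0 to 38 members for both ligands, 0 to 40 for Shh, 0 to 36 for Ihh, 1 to 8 other pathway genes and 99 to 416 genes in all, the highest being without Vehicle 3 each time. The members' median difference lay between -1.01 and -0.57 throughout. Their median SD over Vehicle was 0.05 to 0.70, the lowest without Vehicle 3. Signs turned for Irf1 (0.03 with quantile normalization again, -0.07 to 0.02 without 1 array), Cxcl9 (0.01 with the mean of its probe sets) and Cxcl11 (-0.01 to 0.07 without 1 array). In each other alternative with 1 value per gene every member kept its sign. With single probe sets, 4 of the 32 other probe sets had the opposite sign to the one used. These belonged to Cxcl9 (0.09), Dhx58 (0.13), Tap1 (0.02) and Xaf1 (0.01), and all 4 lay below the array medians. Between the ligands 0 members were called by limma in any of these fits. The causes were not tested. The fit of only the groups compared equals the fit to all arrays for both ligands. The fit of only Ihh and Vehicle with a replicate block, added after seeing the data, gave 15 for Ihh. For Shh the deviations of same-numbered arrays correlated between -0.16 and 0.14 with Vehicle and between -0.30 and -0.08 with Ihh.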

Other observations

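The 10 genes outside the list that had the largest SD over the Vehicle arrays were looked up in the same way. They were Xist, Clca1, Dmbt1, Cdh1, Slfn1, Krt19, Slfn4, Krt8, Eif2s3y and Reg3b, which hold sex-linked transcripts, epithelial genes and the Schlafen genes Slfn1 and Slfn4, a family with interferon-inducible members in mouse. Slfn1 stood at 3.88, 4.25 and 4.06 log2 with Shh, 4.46, 4.91 and 4.07 with Ihh, and 7.17, 7.31 and 4.35 with Vehicle. Slfn4 stood at 3.72, 3.96 and 3.88 with Shh, 3.96, 4.0 and 3.82 with Ihh, and 7.13, 6.84 and 4.15 with Vehicle. In both, Vehicle 3 lay near the treated arrays, far below Vehicle 1 and Vehicle 2. Neither passed the test, with differences of -2.0 ± 0.55 log2 (SE, adjusted p = 0.121) and -2.15 ± 0.53 (adjusted p = 0.0834) by limma. Among the 100 genes with the largest SD over Vehicle, 17 were interferon-stimulated genes of the list.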
